A study of Mus musculus with 9 samples.

Results

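Differentially methylated regions (DMRs) in promoters of protein-coding genes were taken from a comparison of methylated DNA in the neonatal mouse hypothalamus. A DMR was placed in a promoter when its centre lay from 1000 bp upstream to 100 bp downstream of the start of any transcript of a protein-coding gene in GENCODE vM21, on an autosome. The rule used position alone. It found 339 DMRs in 335 genes, of 12845 autosomal DMRs and 12949 in all. The share of autosomal DMRs was 2.64%, and the promoter windows covered 2.29% of the autosomal sequence. Of 20807 autosomal protein-coding genes, 1.61% had such a DMR. Each of the 19 autosomes had at least 4 and at most 36 of them.

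The study asked whether stress shortly after birth alters DNA methylation in the hypothalamus. Male C57/Bl6 pups underwent modified maternal separation (MMS), a short stay away from the dam on each day from P4 to P6 during which they were repeatedly laid on their backs, and control pups were male littermates that were not separated. Hypothalamic DNA was collected on P6, directly after the last separation, and DNA of several animals was mixed into each of 3 control and 3 MMS pools, so differences between single animals were not measured. Methylated fragments were captured with an antibody against methylated cytosine and sequenced (meDIP sequencing), with 2 inputs, 1 for each group, and 1 IgG library beside the 6 pools.

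The deposited values were group means, on a log2 scale, of normalised reads over each DMR, in columns named untreated and treated that were read here as control and MMS. All listed DMRs had been selected by the authors because the groups differed. No value per pool was used, so no error can be given for a mean, no difference was tested here, and the number of reads that each pool gave to a value is unknown. The precision is limited by 3 pools in each group. The lowest group mean in the table was -0.17 in control (0.889 normalised reads) and -0.24 in MMS (0.847 normalised reads), and where a group stood at that value the size of the difference depends on where it was set. The tissue label could not be checked against marker genes, since DNA carries no expression level, and a change in the mixture of cell types cannot be told apart from a change in methylation within a cell type.

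DNA methylation in mammals falls mainly on cytosines followed by guanine (CpG). Promoters rich in CpG, often called CpG islands, are usually free of methylation in most tissues, and methylation of such a promoter is associated with a silent gene. Promoters poor in CpG are often methylated, and their methylation varies more between tissues. Methylation inside the body of a gene is common in genes that are transcribed, so a start inside a gene and the outermost start of that gene are different settings. An meDIP read count rises with the methylation of a region and also with its number of CpG sites and its length.

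The sequences of 8 promoter DMRs are shown first, because they carry the largest differences with both group means above the lowest value, in each direction, and the densest CpG, among DMRs whose printed bases overlap no untranslated region. That condition left out Ccl24, with a larger difference, and Rexo1, with denser CpG, both described further on. They were read from GRCm38 on the strand of the gene and centred on the DMR, and capitals mark each CpG. All but that of Plxnd1 lay inside the body of the gene, at a start other than the outermost, and all but that of Slc20a1 were outside coding sequence. Those higher in MMS were at Slc20a1, a phosphate transporter (chr2:129206176-129206376, plus strand), Ccdc170, a coiled-coil protein (chr10:4508885-4509085, plus strand), and Mgat4b, an enzyme of N-glycan branching (chr11:50230189-50230376, plus strand).
Slc20a1: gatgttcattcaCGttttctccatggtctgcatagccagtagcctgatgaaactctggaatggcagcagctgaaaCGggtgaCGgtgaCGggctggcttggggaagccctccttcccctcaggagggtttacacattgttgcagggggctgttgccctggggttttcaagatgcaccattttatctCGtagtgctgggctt
Ccdc170: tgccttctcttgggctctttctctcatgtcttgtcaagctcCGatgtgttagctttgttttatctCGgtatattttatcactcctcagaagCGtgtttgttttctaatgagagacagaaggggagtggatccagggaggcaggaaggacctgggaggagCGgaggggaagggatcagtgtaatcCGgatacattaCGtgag
Mgat4b: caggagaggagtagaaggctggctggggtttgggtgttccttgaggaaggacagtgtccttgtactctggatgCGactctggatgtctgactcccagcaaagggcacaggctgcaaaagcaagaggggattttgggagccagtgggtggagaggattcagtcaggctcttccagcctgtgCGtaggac
These 3 runs held 5, 6 and 2 CpG sites, and they came from DMRs whose control means were 0.5, 1.01 and 0.5 and whose MMS means were 4.73, 5.06 and 4.38. Those higher in control were at Mapkbp1, a scaffold of MAP kinase signalling (chr2:120021497-120021678, plus strand), Gm973, a predicted gene (chr1:59606532-59606721, plus strand), and Lrch1, a leucine-rich repeat protein (chr14:74795490-74795690, minus strand).
Mapkbp1: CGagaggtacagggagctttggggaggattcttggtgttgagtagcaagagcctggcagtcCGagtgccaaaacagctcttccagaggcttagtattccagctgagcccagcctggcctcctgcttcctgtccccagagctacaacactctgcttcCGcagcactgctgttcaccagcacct
Gm973: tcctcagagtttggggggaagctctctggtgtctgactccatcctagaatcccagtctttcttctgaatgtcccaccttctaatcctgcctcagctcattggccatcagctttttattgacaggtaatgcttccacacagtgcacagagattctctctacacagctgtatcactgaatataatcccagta
Lrch1: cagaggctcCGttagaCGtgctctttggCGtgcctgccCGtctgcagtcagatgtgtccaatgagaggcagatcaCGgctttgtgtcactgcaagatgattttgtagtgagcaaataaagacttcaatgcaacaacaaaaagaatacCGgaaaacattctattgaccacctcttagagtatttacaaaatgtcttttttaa
The Mapkbp1 run held 3 CpG sites, the Lrch1 run 6 and the Gm973 run 0. Their control means were 4.83, 4.92 and 5.03, and their MMS means were 0.81, 1.42 and 1.25. The Gm973 DMR was therefore listed as differing over a stretch in which the reference has no CpG. The DMRs with dense CpG were at Plxnd1, a semaphorin receptor (chr6:115995176-115995376, minus strand), and Phf23, a PHD finger protein (chr11:69996153-69996353, plus strand).
Plxnd1: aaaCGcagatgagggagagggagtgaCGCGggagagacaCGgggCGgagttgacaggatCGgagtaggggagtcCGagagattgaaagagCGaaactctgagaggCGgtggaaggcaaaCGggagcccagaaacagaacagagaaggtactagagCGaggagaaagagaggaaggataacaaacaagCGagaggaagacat
Phf23: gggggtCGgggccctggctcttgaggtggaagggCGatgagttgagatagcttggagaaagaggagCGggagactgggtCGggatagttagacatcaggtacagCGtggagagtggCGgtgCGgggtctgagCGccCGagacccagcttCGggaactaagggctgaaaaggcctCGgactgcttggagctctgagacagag
The Plxnd1 run held 12 CpG sites and the Phf23 run 11. Both DMRs were higher in MMS, Plxnd1 with 2.18 in control and 4.39 in MMS, and Phf23 with -0.17 in control, the lowest value, and 4.13 in MMS.

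The mean was higher in MMS in 223 of the 339 promoter DMRs (65.8%, 95% Wilson interval 60.6% to 70.6%, counting error only) and higher in control in 116. Among all autosomal DMRs 62.4% were higher in MMS, so the share in promoters was close to that of the list from which they came. In promoter DMRs higher in MMS the median group mean was 0.53 in control and 4.29 in MMS. In those higher in control it was 5.29 in control and 3.76 in MMS. The median difference, MMS minus control, was 3.34 in the first set and -1.51 in the second, with ranges of 0.8 to 5.53 and of -5.33 to -0.8. The outer ends of both ranges belong to DMRs whose lower group was at its lowest value, and depend on where that value was set.

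This asymmetry went with the lowest value of the control group. The control mean was within 0.5 of its lowest value in 105 promoter DMRs (31.0%, against 32.8% of all autosomal DMRs), and exactly at it in 96. The MMS mean was at its lowest value in 3, those of Wdr72 (5.09 in control), Gipc2 (4.33) and Fry (3.97). Among the 231 promoter DMRs with both means more than 0.5 above their lowest value, 118 were higher in MMS and 113 in control, which is 51.1% against 45.2% of all autosomal DMRs so selected. In these the median difference was 2.28 where MMS was higher and -1.51 where control was higher. The corresponding medians over all autosomal DMRs were 2.57 and -1.69, so the medians in promoters were the smaller ones in both directions.

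**Figure D1:**
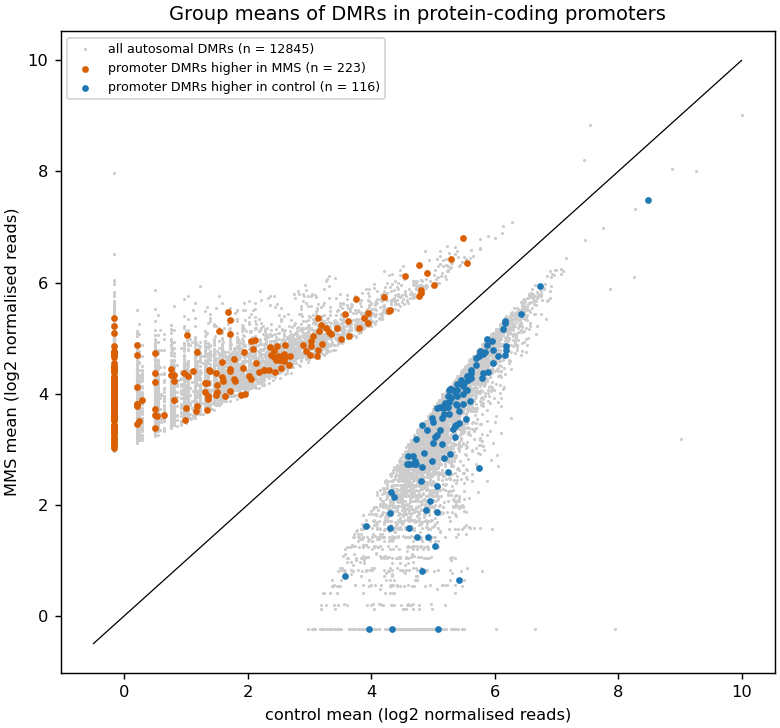
Each point is 1 DMR, with the control mean on the x axis and the MMS mean on the y axis, both as log2 normalised reads, and the line marks equal means. The 223 orange points (promoter DMRs higher in MMS) and the 116 blue points (higher in control) lie within the grey cloud of all 12845 autosomal DMRs, and 96 orange points stand in the column at the lowest control value.

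The promoter DMRs with the highest means, 8 in each direction, had differences of 0.8 to 1.57 where MMS was higher and of -1.48 to -0.8 where control was higher. Among promoter DMRs higher in MMS the highest mean was that of Ccdc40, which is needed for motile cilia (chr11:119258494-119259808), with 5.49 in control and 6.8 in MMS. It was followed by Camkk2, a calcium-dependent kinase that activates AMPK and acts in hypothalamic control of feeding, with 5.3 and 6.42. Next came Gmppa, which regulates the making of GDP-mannose, with 5.56 and 6.36. The difference of 0.8 at Gmppa was the smallest of all promoter DMRs higher in MMS. Ciz1 (4.78 and 6.31) and Kmt2b (5.02 and 5.96) code for a replication factor and for a histone H3 lysine methyltransferase. The mTORC1 adaptor Lamtor3 (4.54 and 6.11), the dynactin subunit Dctn1 (4.81 and 5.87) and the 5-oxoprolinase Oplah (4.9 and 6.18) had similar values. Among those higher in control the highest mean was that of Sfi1, a centrosomal protein, at 8.49 against 7.48 in MMS. These were 360 against 179 normalised reads, and the highest means of any promoter DMR in both groups. The Sfi1 DMR held 8 CpG sites in 720 bp (1.11 per 100 bp). No other place in the reference aligned to it, a search that cannot show copies missing from the reference. Reg4, a secreted lectin of the gut (chr3:98220611-98222831), had 6.42 and 5.44, and Hdac7, a class II histone deacetylase, had 6.18 and 4.79. The lipid phosphatase Inpp4a, which limits excitotoxic death of neurons, had 6.18 and 4.85. Vps52, part of a tethering complex of the Golgi, had 6.17 and 4.69. Cttnbp2, which supports dendritic spines, had 6.17 and 5.3.

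With both means above the lowest value, the largest differences were found where the lower group had few reads. Ccl24, a chemokine that attracts eosinophils (chr5:135572688-135573474), had 5.42 in control and 0.65 in MMS, or 42.8 and 1.57 normalised reads. This DMR covered the single outermost start of the gene and reached into its coding sequence, with its centre 32 bp upstream of the start. Mdm4, an inhibitor of p53, had 5.74 in control and 2.66 in MMS. Sec31b, a part of the COPII coat, had 5.06 and 1.86, and Susd1, a sushi domain protein, had 4.61 and 1.58. Of those higher in MMS, Ube2m, the enzyme that passes on NEDD8, had 1.68 in control and 5.47 in MMS. Eif4ebp1, the translation repressor controlled by mTORC1, had 1.53 and 5.12. Scube1, a secreted EGF-domain protein, had 0.75 and 4.44. Aoc3, a vascular amine oxidase, had 0.5 and 4.21 at its outermost start. The Aoc3 DMR was 49.7% repeat sequence, and parts of it of at least 100 bp aligned at 95% identity or more to 4758 other places in the reference.

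Most promoter DMRs lay at starts inside a gene and not at its outermost start. The outermost start was within reach of 90 DMRs (26.5%), while windows at outermost starts made up 39.7% of the promoter sequence. A start of a transcript that is itself protein-coding was within reach of 164 (48.4%, with 64.4% of the sequence), and both held for 86. The nearest start belonged to a protein-coding transcript in 156 DMRs, to a retained-intron transcript in 94, to a processed transcript in 66 and to a transcript subject to nonsense-mediated decay in 23. The centre lay inside the body of the gene in 253 DMRs (74.6%), and 139 (41.0%) overlapped coding sequence. No promoter DMR lay in a window shared by 2 or more genes, although such windows made up 2.25% of the promoter sequence.

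The DMRs at outermost starts were more often higher in MMS. Of these 90, 69 (76.7%) were higher in MMS, against 154 of 249 (61.8%) at other starts. The control mean was near its lowest value in 43.3% of the first and 26.5% of the second. With both means above the lowest value, 58.8% of 51 were higher in MMS at outermost starts and 48.9% of 180 at other starts. These differences were not tested. The start itself was inside the DMR in 139 (41.0%), and the centre was at or downstream of the start in 35 (10.3%). In steps of 200 bp from the upstream edge of the window, 42 of 59, 43 of 66, 41 of 63, 34 of 50 and 37 of 66 DMRs were higher in MMS. From the start to 100 bp downstream it was 26 of 35, and there was no steady trend along the window. The DMR nearest the edge of the window was that of Nup210, centred 1000 bp upstream of a start.

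**Figure D2:**
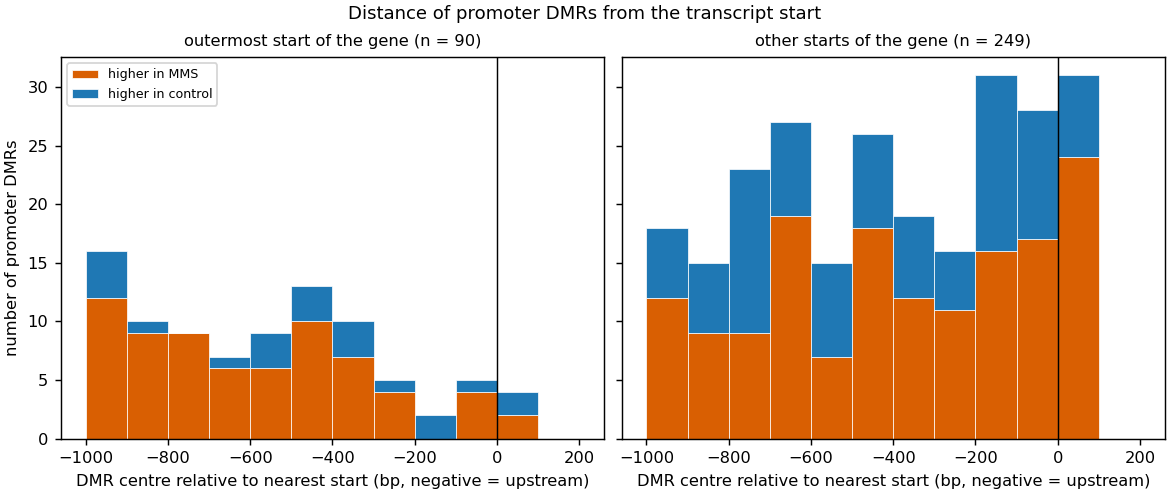
Bars count promoter DMRs by the distance of the centre from the nearest start in bins of 100 bp, with negative values upstream, for the 90 DMRs at the outermost start (left) and the 249 at other starts only (right). Orange (higher in MMS) and blue (higher in control) are stacked, and orange makes up 76.7% of the left panel and 61.8% of the right.

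The centres nearest to a start were those of Grin2d (0 bp), Enox1 (1 bp downstream), Lrrc74a (4 bp upstream), Mdm4 (5 bp downstream) and Olfr877 (8 bp upstream). All 5 were higher in control. Enox1, a cell surface oxidase, had 5.98 in control and 4.79 in MMS. Lrrc74a, a leucine-rich repeat protein, had 5.49 and 4.0, and the olfactory receptor Olfr877 had 5.39 and 4.17.

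The sequence under promoter DMRs was moderately rich in CpG. The median was 1.82 CpG per 100 bp, against 1.33 over all autosomal DMRs, 2.02 over DMRs centred in exons outside promoters and 1.37 over those in introns. The median GC content was 50.1% against 47.4% over all autosomal DMRs, and the median ratio of observed to expected CpG was 0.297 against 0.253. The CpG density was nearly the same in both directions, with medians where MMS was higher and where control was higher of 1.79 and 1.83 per 100 bp. The median width was 547 bp (range 153 to 4689 bp), and 6 DMRs held no CpG. A median of 13.3% of the bases was repeat sequence, against 20.6% over all autosomal DMRs.

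Promoters of low CpG content made up most of the windows with a DMR. By the CpG content of the window from 1000 bp upstream to 100 bp downstream, 231 DMRs (68.1%) were at starts of the low class, 84 (24.8%) at the intermediate class and 24 (7.08%) at the high class. Of all 90310 autosomal protein-coding starts, 46.6%, 25.3% and 28.1% fell in these classes. High-CpG promoters, those in which some 500 bp had GC over 55% and an observed to expected ratio over 0.75, thus held a smaller share of the DMRs than of the starts, a difference that was not tested. At outermost starts alone the contrast was smaller, with 19 of 90 DMRs (21.1%) in the high class against 26.0% of genes. By genes it was reversed. Of the genes with a promoter DMR at any start, 106 (31.6%) had an outermost start of the high class, against the same 26.0%. In the high class 20 DMRs were higher in MMS and 4 in control. The intermediate class had 59 and 25, and the low class 144 and 87.

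**Figure D3:**
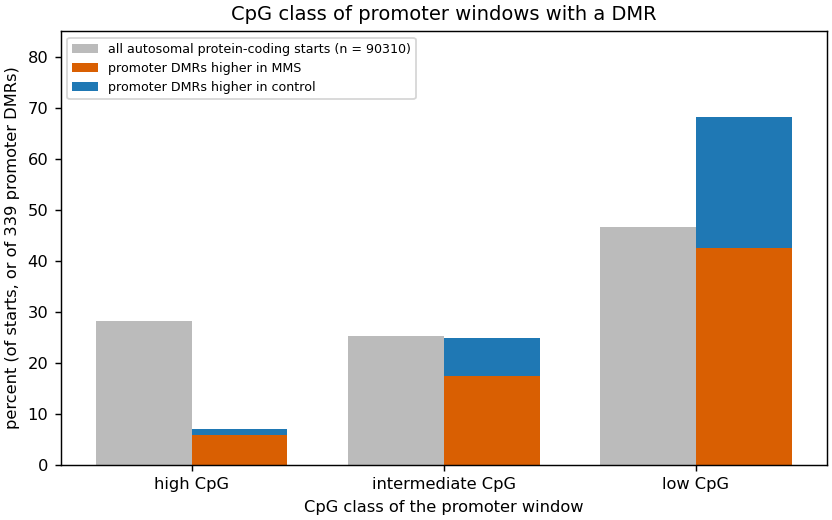
Grey bars give the percent of the 90310 autosomal protein-coding starts whose window falls in each CpG class, and the stacked bars give the percent of the 339 promoter DMRs, orange where MMS was higher and blue where control was higher. The high class holds 28.1% of starts and 7.08% of promoter DMRs, and the low class 46.6% and 68.1%.

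The DMR itself met the definition of a CpG island (at least 200 bp, GC over 50%, observed to expected CpG over 0.6) in 5 cases (1.47%, against 0.42% of all autosomal DMRs and 1.58% of DMRs centred in exons outside promoters). These were Rexo1, Plxnd1, Phf23, Fam184a and Hpf1. Rexo1, an RNA exonuclease family gene, had the densest CpG of all, with 18 CpG sites in 233 bp (7.73 per 100 bp) 38 bp upstream of a retained-intron start. Its means were 0.5 in control and 3.61 in MMS. Plxnd1 had 5.97 CpG per 100 bp and lay at its outermost start, with its centre 271 bp upstream. Phf23 had 5.51 per 100 bp. Fam184a and Hpf1 are outside the rule for named genes and were added after their values were seen. Fam184a had -0.17 in control and 3.74 in MMS at its outermost start. Hpf1, a cofactor of PARP1 in the response to DNA damage, was the single island DMR higher in control, with 5.29 and 4.09. After Rexo1, Plxnd1 and Phf23, the densest CpG in DMRs of at least 200 bp was in Col19a1, a collagen (2.61 in control and 4.88 in MMS), and in Ipmk, an inositol phosphate kinase (0.2 and 3.77), each with 4.88 CpG per 100 bp.

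At the other end, the DMRs of at least 200 bp with the lowest CpG density were those of Olfr545 (0 CpG in 211 bp), Cndp1 (1 in 539 bp), Ipo8 (1 in 345 bp), Kctd19 (2 in 518 bp) and Pan3 (2 in 518 bp). All 5 were higher in MMS. Ranked by number instead, DMRs with 1 CpG that were higher in control, such as those of Lats2, Slc34a1 and Slc12a9, would precede the last 2. Ipo8, a nuclear import receptor, had 2.06 in control and 4.95 in MMS. The olfactory receptor Olfr545 had 0.2 and 3.45. The control mean of Cndp1, the carnosinase, and of Pan3, part of a deadenylase complex, stood at the lowest value, with 3.81 and 3.03 in MMS. The Cndp1 DMR was 81.3% repeat sequence.

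Genes were then described by role, from lists of genes known for a function, with counts that were not tested. The lists are not complete, so each count is of the genes on the list and not of every gene with that function. The list of stress axis and early response genes had 1 of 39 genes with a promoter DMR, against 1.61% of all genes. It was Nr3c2, the mineralocorticoid receptor, which binds corticosterone with high affinity in the brain (chr8:77126702-77128063). Its DMR was higher in control, with 6.17 against 5.28 in MMS, or 72.0 against 38.9 normalised reads. It covered the start of a processed transcript inside the gene and not the outermost start. The glucocorticoid receptor (Nr3c1), corticotropin-releasing hormone (Crh) and the immediate early gene Fos are on the same list, and no other gene of it had a promoter DMR.

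The list of DNA methylation machinery had 1 of 26 genes with a promoter DMR. It was Dnmt3l, which has no catalytic activity of its own and stimulates the de novo DNA methyltransferases (chr10:78049383-78050071). The control mean was at the lowest value, -0.17, and the MMS mean was 3.82. The DMR covered a protein-coding start inside the gene, and the gene body held 2 further DMRs, both higher in MMS. Of 72 hypothalamic peptides and receptors, 1 had a promoter DMR. It was Tacr3, the receptor for neurokinin B, which is known for its part in the release of gonadotropin-releasing hormone (chr3:134828103-134828473). The mean was 1.71 in control and 5.32 in MMS, and the DMR was centred 719 bp upstream of the outermost start. The Tacr3 DMR was 90.3% repeat sequence, and parts of it of at least 100 bp aligned at 95% identity or more to 2488 other places in the reference.

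Receptors for fast neurotransmitters had 3 of 46 listed genes with a promoter DMR (6.52%, against 1.61% of all genes). All 3 had the higher mean in control, as had 37.6% of all autosomal DMRs. With 3 genes neither share was tested, and the number of starts in each gene was not allowed for. Grin2d, the NMDA receptor subunit GluN2D (chr7:45866704-45867554), had 6.74 in control and 5.94 in MMS, or 107 and 61.4 normalised reads. The centre of its DMR was on a protein-coding start inside the gene. Gria1, the AMPA receptor subunit GluA1 (chr11:57011753-57012850), had 4.73 and 2.73. Its DMR overlapped coding sequence. Neither of these DMRs had another alignment in the reference. The other DMRs in the body of these genes did not all share the direction, since Grin2d had 1 more higher in control and Gria1 had 1 higher in MMS. Of 69 listed genes for other neurotransmitter receptors, and of 125 listed for cadherins and synaptic adhesion proteins, 0 had a promoter DMR. Outside these lists, and named after their values were seen, 2 such genes were higher in MMS. They were the cadherin Dchs1 (-0.17 in control and 4.39 in MMS) and the synaptic adhesion protein Lrrc4 (2.27 and 4.43).

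The list of ion channels had 3 of 176 genes (1.7%), all higher in MMS. Outside the list, and named after their values were seen, the mechanosensitive channel Piezo1 was higher in control (6.13 and 5.16) and the polycystin channel Pkd2l1 was higher in MMS (-0.17 and 3.52). Kcnab2, a potassium channel beta subunit, had a control mean at the lowest value and an MMS mean of 4.23. Trpv1, the channel opened by heat and capsaicin, had 1.31 in control and 4.2 in MMS. Axon guidance had 1 of 68 genes, Plxnd1, described above.

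Solute carriers had the most promoter DMRs of any list, with 13 of 372 genes (3.49%), 6 higher in MMS and 7 in control. The 4 with the highest mean in the higher group were higher in control, a ranking that favours that direction. Over promoter DMRs the median of that mean was 5.29 where control was higher and 4.29 where MMS was higher. The choline transporter-like protein Slc44a3 had 5.85 in control and 4.75 in MMS. The potassium-chloride cotransporter Slc12a7 had 5.81 and 4.72, the zinc transporter Slc39a13 5.61 and 4.43, and the sodium-phosphate cotransporter Slc34a1 5.37 and 3.81. In the other direction Slc20a1 had 1.41 normalised reads in control and 26.5 in MMS. The glucose transporter Slc2a10 was at the lowest value in control and at 4.86 in MMS, at its outermost start.

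Of 231 homeobox, Sox, Fox and T-box genes, 6 had a promoter DMR, 4 higher in MMS and 2 in control. Pax5, a factor of the midbrain boundary and of B cells, had 5.0 in control and 3.11 in MMS. Foxp1, a forkhead factor of neuronal development, had the lowest value in control and 4.24 in MMS. The homeobox gene Meis3 and the cell cycle factor Foxm1 were likewise at the lowest value in control, with 4.04 and 3.66 in MMS. Zinc finger genes had 6 of 459, 5 higher in MMS. Zfp536, a repressor of neuronal differentiation, was the one higher in control (5.39 and 3.8). Zbtb49 (3.94 and 5.27), Zfp445 (2.68 and 4.68), a regulator of imprinted regions, and Zfp13 (2.59 and 4.59) were higher in MMS.

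The ubiquitin system had 10 of 403 genes (2.48%), 6 higher in MMS and 4 in control. Beside Ube2m, the proteasome subunit Psmd8 had 3.14 in control and 5.36 in MMS. The ubiquitin ligase Rnf25 had 5.37 and 3.44, and Ube2v1, a partner in the making of lysine-63 chains, had 5.32 and 4.07. The list of small GTPase regulators had 5 of 223 genes, and Arap1 and Kalrn, described further on, are outside it. Of the 5, Arhgap28 was higher in control (5.42 and 3.68) and Tbc1d2b (2.12 and 4.97), Dock9 (2.02 and 4.31), Rab3ip and Rasal3 were higher in MMS. Both of the last were at the lowest value in control.

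**Figure D4:**
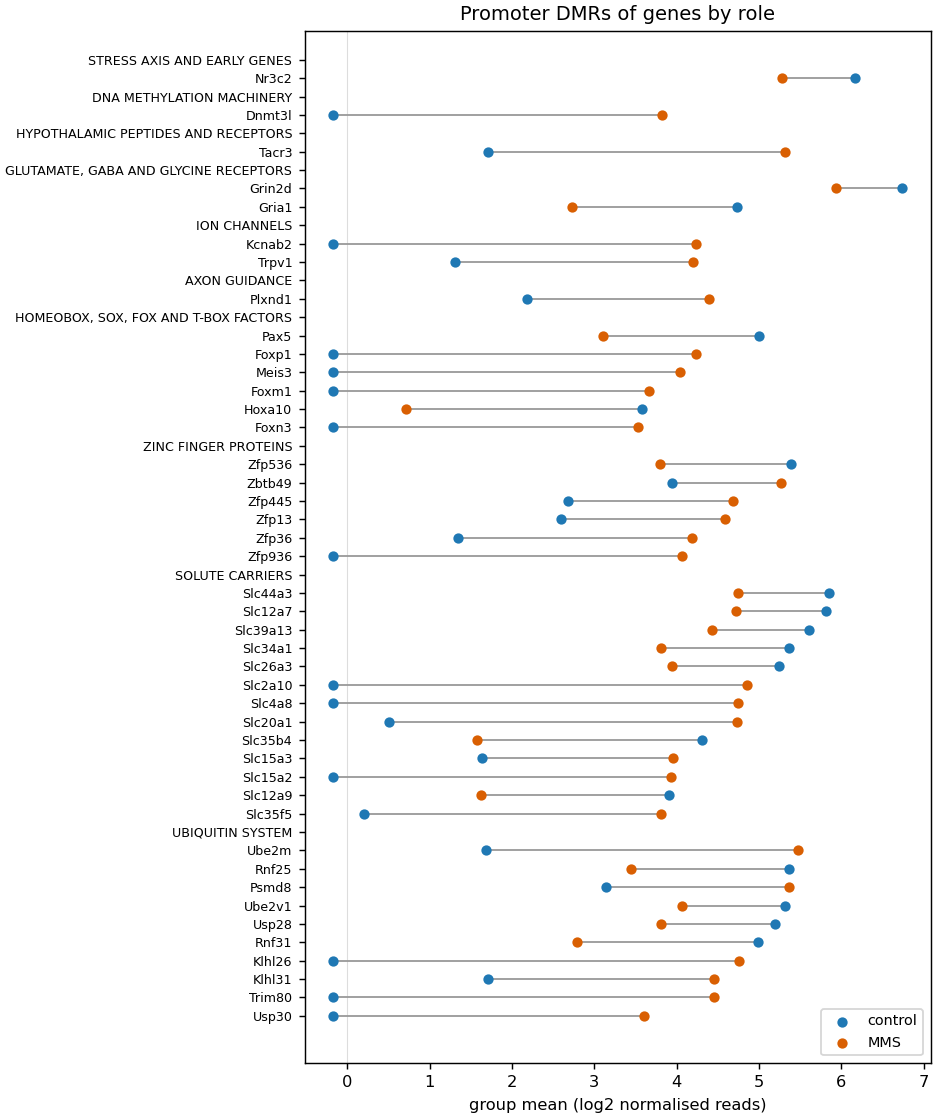
Each line joins the control mean (blue) and the MMS mean (orange) of the promoter DMR of 1 gene, as log2 normalised reads, for the genes of 10 lists that are reported here. The glutamate receptor genes Grin2d and Gria1 have blue to the right of orange, the ion channel genes Kcnab2 and Trpv1 have orange to the right, and the 13 solute carriers are split 6 to 7.

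Other lists had few members. The list of cilium and motor proteins had 4 of 181 genes, and Ccdc40 and Hydin, both higher in MMS, are ciliary genes outside it. Ttll7, a tubulin polyglutamylase of neurons (5.3 in control and 3.92 in MMS), and Cfap74 (4.86 and 2.94) were higher in control. The axonemal proteins Dnah14 (3.13 and 4.78) and Rsph14 (-0.17 and 4.26) were higher in MMS. Extracellular matrix had 4 of 139, of which the protease Adamts10 was higher in control (5.98 and 4.55) and Mmp24 (3.63 and 5.3), Col19a1 and Mmp25 (-0.17 and 3.58) were higher in MMS. Among 119 listed genes of FGF, Wnt, BMP and Notch signalling, the 1 with a promoter DMR was the receptor Fgfr1. Its DMR was at the outermost start, with 2.45 in control and 4.62 in MMS. Outside the list, and named after their values were seen, the Wnt pathway genes Dvl2 (5.81 and 4.37) and Ptk7 (1.5 and 4.15) had opposite directions. Rbpj, a Notch gene described further on, is also outside it and was higher in control. Adgrg1, an adhesion receptor needed for the layering of the cortex, was the 1 of 90 orphan and adhesion receptors, at the lowest value in control and 3.92 in MMS.

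The remaining lists had a promoter DMR in a smaller share of their genes than the 1.61% of all genes. Immune genes had 3 of 414 listed (0.725%). Ccl24 and Il25 were higher in control and Tnfsf9, the ligand of the costimulatory receptor 4-1BB, was higher in MMS (-0.17 and 4.16). Other immune genes with a promoter DMR are outside this list, and those given here were named after their values were seen. Clec10a (5.23 and 3.76) and Batf (5.56 and 4.32) were higher in control. Ifi47 (2.26 and 4.42), Ikbke (1.12 and 4.4), Spi1 (2.43 and 4.66) and Ifi202b were higher in MMS. Xenobiotic and steroid metabolism had 2 of 252, both higher in MMS. One was Cyp19a1, the aromatase that makes estradiol from androgens in the neonatal male hypothalamus, with 2.6 in control and 4.66 in MMS near the start of a processed transcript. The other was the esterase Ces1a (1.18 and 3.77). Proteases and serpins had 2 of 216, Serpina11 higher in control (5.18 and 2.84) and Klk15 higher in MMS (3.32 and 5.11). Keratins had 1 of 113, Krt75 (3.58 and 5.43), and ribosomal proteins 1 of 157, Rpl26, at the lowest value in control and 3.33 in MMS. Olfactory, vomeronasal and taste receptors had 3 of 1517 (0.198%), Olfr877, Olfr545 and Olfr1272 (2.5 and 4.68). Of 80 histone genes 0 had one.

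The next genes, chosen after their values were seen, had their outermost start within reach. Hspa1a, the inducible heat shock protein HSP70, had 1.16 in control and 3.68 in MMS, with its DMR centred 909 bp upstream. Ngfr, the p75 neurotrophin receptor, had 3.51 and 4.98, and Dbn1, the actin-binding drebrin of dendritic spines, had 2.13 and 4.55. Grn, which codes for progranulin, and Suz12, a core subunit of the Polycomb complex PRC2, stood at the lowest value in control, with 4.04 and 3.6 in MMS. Rbpj, the nuclear effector of Notch, was higher in control (5.0 and 3.49). Gcgr, the glucagon receptor, was at the lowest value in control and 3.55 in MMS. Ubl4b, a ubiquitin-like gene of the testis, was likewise at the lowest value in control, with 5.36 in MMS.

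Genes known in neurons, growth control or chromatin also had DMRs at starts inside the gene, and those given next were chosen after their values were seen. Of genes that act around mTORC1, Rptor, its substrate adaptor, was higher in control (5.54 and 4.06), whereas Akt1, an upstream kinase (2.95 and 4.76), was higher in MMS like Lamtor3 and Eif4ebp1. Sv2c, a synaptic vesicle glycoprotein, had 5.38 in control and 3.43 in MMS, and Scamp5, a carrier protein of the same vesicles, had 5.49 and 4.14. Baiap2, a regulator of actin in spines, had 4.32 and 2.23. Begain, a postsynaptic protein that binds the guanylate kinase domain of PSD-95, went the other way, from the lowest value in control to 4.21 in MMS. Pdgfra, the growth factor receptor that marks oligodendrocyte progenitors, had 4.96 in control and 2.06 in MMS. Smarca2, an ATPase of the BAF remodelling complex, had 5.46 and 4.25, while Kmt5a, the histone H4 lysine methyltransferase, had 3.95 and 5.45. Epas1, a hypoxia-inducible factor, and Tcf4, a basic helix-loop-helix factor of neuronal development, were at the lowest value in control, with 3.66 and 3.44 in MMS. Both directions thus occurred among genes of related function.

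In 4 genes there were 2 promoter DMRs. Aacs, which activates acetoacetate for lipid synthesis, had both higher in control, with 5.35 and 5.47 in control and 3.41 and 4.17 in MMS. Kctd19, known from male meiosis, had both higher in MMS, one at the lowest value in control (3.77 in MMS) and one at 2.66 and 4.51. In Arap1, a regulator of small GTPases, and in Cit, the citron kinase of dividing neural progenitors, the directions were opposite. Arap1 had 1.18 in control and 4.75 in MMS at one start, and 5.26 and 4.07 at the other. Cit had 6.06 and 4.67 at one, and 2.58 and 4.72 at the other. So the starts of 1 gene did not share a direction in 2 of the 4.

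Other DMRs within the gene were also compared with the promoter DMR. Of the 335 genes, 112 (33.4%) had at least 1 more DMR in the body outside promoter windows. In 72 genes with the first promoter DMR higher in MMS, 66 of 104 such DMRs (63.5%) were higher in MMS too, close to the 62.4% of all autosomal DMRs. In 40 genes with the first promoter DMR higher in control, 37 of 81 (45.7%) were higher in control, against 37.6% of all autosomal DMRs. Neither share was tested. Kalrn, a guanine nucleotide exchange factor of dendritic spines, had the most with 8, of which 6 were higher in MMS although its promoter DMR was higher in control (5.76 and 4.77). Hydin, which is needed for ciliary beating, had 5, all higher in MMS like its promoter DMR.

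The central 300 bp of each promoter DMR was searched on both strands for short motifs whose recognition is known to depend on, or to include, CpG, and for AP-1. The GC box (GGGCGG) was in 34 of 339 promoter DMRs, against 667 of 12506 other autosomal DMRs (5.33%). The E-box (CACGTG) was in 19 (5.6%, against 5.6%), and the AP-1 site (TGANTCA) in 16 (4.72%, against 7.84%). The ETS site (CCGGAAGT) was in 2, Ccdc158 and Dlst (0.59%, against 0.488%). The cyclic AMP response element (TGACGTCA) was in 0, against 37 of 12506 (0.296%). These shares were not tested and are described as matches of letters.

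Repeated sequence limits where a read can be placed. In 303 promoter DMRs (89.4%) no other stretch of the reference of at least 100 bp aligned at 95% identity or more. The other 36 had such alignments, 29 of them higher in MMS and 7 in control. Among the 303, 64.0% were higher in MMS. One DMR, that of the interferon-inducible gene Ifi202b, had another copy over at least 90% of its width (876 bp), and its control mean was at the lowest value with 4.69 in MMS. Repeat sequence covered more than 50% of the DMR in 30 (8.85%), 25 of them higher in MMS. Among all autosomal DMRs it did so in 17.3%, or 2219, of which 1482 were higher in MMS. The widest of all promoter DMRs, 4689 bp at Gm11168, was 96.6% repeat, at the lowest value in control and 5.22 in MMS. Of the other named genes, those with the most such alignments were Zfp36 with 379, Rpl26 with 255, Ube2v1 with 136 and Trpv1 with 95, and others, such as Ciz1 with 48, had fewer. The part of repeats in these differences was not tested.

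The study also lists genes by their mRNA in the same tissue, and 15 of the genes with a promoter DMR are on that list. Only the listed direction is used here, in words. The list was drawn up by the size of the difference and not by a test, so a listed direction is not a tested change in mRNA. In 12 of the 15 the promoter DMR and the mRNA had opposite directions, and in 3 the same. The mRNA was listed as lower in MMS for 13 of the 15, and 12 of the 15 DMRs were higher in MMS, and with such margins opposite directions are frequent whatever the link. The makeup of the whole expression list was not analysed here, so these counts are not set against it. DMR higher and mRNA lower in MMS was the pattern of 11 genes. Of these, Plxnd1, Rbm46, an RNA-binding protein of germ cells (0.5 in control and 3.73 in MMS), Rsph14 and Slc2a10 had the DMR at the outermost start. At other starts of the gene were those of Trpv1, Zfp13, Ccdc158 (-0.17 and 3.97), Hydin (-0.17 and 3.23), the kinase Mapk15 (-0.17 and 4.19), the endocytic adaptor Ston2 (3.27 and 5.19) and Zfp36, the mRNA decay factor tristetraprolin (1.34 and 4.19). Slc44a3 had a DMR higher in control and its mRNA listed as higher in MMS. The same direction was found for 4933405L10Rik, with both higher in MMS (1.0 and 3.75), and for Il25, a cytokine of type 2 immunity (5.56 and 4.06), and Popdc3 (5.69 and 4.51), with both lower in MMS.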

How the data were processed

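Per the paper's methods and the submitters' processing notes, the authors aligned meDIP reads to mm10, called broad peaks over inputs with MACS2 2.1, annotated them with HOMER 4.8 and compared 3 control with 3 MMS pools by DiffBind. The deposited log2 values are means of normalised reads over all pools and over each group. The fold change, p-value and FDR columns hold the authors' own comparison and were not used. With group means alone, the limma test planned for values per library could not be run, and libraries could not be compared for depth or duplication. The labels name the same antibody for the inputs and the IgG library, which were not analysed here.

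DMR centres were set against starts in GENCODE vM21, and CpG, GC and soft-masked repeats were read from GRCm38. The placing and counting were tested on simulated regions. Other copies were searched with BLAST 2.17.0. Promoter windows were high class as defined above, low where no 500 bp window exceeded an observed to expected ratio of 0.48, and intermediate otherwise. Named genes were the 8 highest and 8 largest differences in each direction, those with 2 DMRs, all members of 3 lists and up to 4 of each other list, the 5 with most and fewest CpG per 100 bp, the 5 nearest a start and those on the expression list. Some genes that meet this rule are not reported here. Sequences were the first of these outside UTRs. The members and lists were chosen with earlier results of these data known. Alternatives were other windows, starts, annotations, filters and definitions. Python 3.11.15, numpy 2.4.6, pandas 2.3.3, pysam 0.24.0 and matplotlib 3.10.9 were used.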

Additional observations from a re-analysis of the deposited data

How the results depend on the processing

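The number of promoter DMRs and of genes depended on what was called a promoter. There were 190 DMRs in 190 genes with a window from 500 bp upstream, 750 in 737 genes from 2000 bp upstream to 500 bp downstream, and 531 in 524 genes where any base of the DMR could lie in the window. Protein-coding transcripts alone gave 164 in 163 genes, outermost starts alone 90 in 90, and RefSeq starts 172 DMRs in 175 genes, of which 108 DMRs were among the 339. The share higher in MMS was 76.7% at outermost starts, 71.5% with RefSeq and 51.1% where both means were above their lowest value. It was within its counting interval under the other 8 alternatives, among them DMRs with no other alignment, an alternative chosen after seeing the data. One of the 8, a higher-group mean of at least 3, removed no DMR and so tests nothing. Another, with X and Y included, added 3 DMRs, too few to move the share out of its interval in either direction. The share with the control mean near its lowest value was 39.0% with protein-coding transcripts and 43.3% at outermost starts. With the stricter island definition 0 promoter DMRs were islands. The remaining alternatives left these counts within 1.5 times and shares within their counting intervals.

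No paired analysis was possible because the deposited values are group means, and leaving out each pool in turn was not run for the same reason. The spread between the 3 pools of a group and the depth of each library were not measured here, and they limit every value given. In the 96 promoter DMRs at the lowest control value, the size of the difference is set by that value.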
